A study of Mus musculus with 2 samples.

Results

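Guanylate-binding protein genes were represented by 8 probes of 2 genes, Gbp1 and Gbp2, on 2 arrays for comparative genomic hybridisation, a method that labels test and control DNA with different dyes and lets both bind to one set of probes. They were chosen by name, as every non-control probe whose gene name is Gbp followed by a digit, out of 26677 names and 42396 probes used on the adult array and 26671 names and 42370 probes used on the embryo array. Gbp1 has 6 of the probes and Gbp2 has 2, and all of them lie on chromosome 3. The family was also picked out from the ratios measured on these same arrays, so its ratios are described here without a test.

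The study asked whether the genome of offspring differs when the sire is heterozygous for Dnmt3L, the gene of a cofactor of the DNA methyltransferases of the germ line. On the adult array, tail DNA of adult offspring of such a sire, labelled female and wildtype (Dnmt3L+/+), was in Cy3. Tail DNA of an unrelated C57BL/6 colony, also labelled adult, female and Dnmt3L+/+, was in Cy5. The sex is given here as labelled, and the X probes are described below. On the embryo array, DNA of whole embryos at E10.5 was compared, and here Cy5 marked wildtype offspring of a heterozygous sire and Cy3 marked embryos of a control cross. One label calls the embryos (FVB/NJ x C57BL/6)F1 and another calls them female C57BL/6 Dnmt3L+/+, which leaves their strain unsettled. Each stage has 1 array without a replicate, and the sources used here do not give how many animals the DNA came from. No value below therefore has a replicate error, and the error given for a probe is the one the scanner software deposited with its log ratio.

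Guanylate-binding proteins are large GTPases that cells make in quantity after exposure to interferon, above all interferon gamma. They gather on vacuoles and membranes of intracellular bacteria and parasites, help to break them open, and feed bacterial products to inflammasomes. In the mouse their genes form tandem clusters of similar copies on chromosomes 3 and 5. The arrays measured DNA, so a ratio below 0 says that less offspring than control DNA hybridised to a probe and says nothing of how much RNA or protein the gene makes.

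In the mouse assembly table used for names (GRCm38.p6), 12 symbols of the family are listed, 6 on chromosome 3 and 6 on chromosome 5. Of these, 4 had a name in the array files and 8 had none, namely Gbp3, Gbp5, Gbp7, Gbp2-ps, Gbp6, Gbp9, Gbp10 and Gbp11. The name Gbp1 of the array is an older name of Gbp2b, the neighbour of Gbp2 at one end of the chromosome 3 cluster. In the table, the 5 coding genes of that cluster follow each other as Gbp5, Gbp7, Gbp3, Gbp2b and Gbp2 over 141 kb. The 6 probes named Gbp1 span 67.1 kb, which is 2.75 times the 24.4 kb of Gbp2b in the table, so not all of them can lie within that gene as it is now annotated. Which gene each of them lies in, and whether in an exon or an intron, is not recorded in the sources used here. Copies of the family are alike in sequence, and whether DNA of one copy hybridised to a probe of another was not tested.

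The promoters of the pair of genes that the array names are shown because they carry an element known for the induction of such genes by interferon, the interferon-stimulated response element. They are given 5′ to 3′ on the + strand from 250 bases before to 50 bases after the start, as RefSeq has them on GRCm38.p6, with the element in capitals. The window of Gbp2b is chr3:142594597-142594896 and that of Gbp2 is chr3:142620413-142620712. These positions cannot be set against the probe positions below, whose build the sources used here do not name.
Gbp2b: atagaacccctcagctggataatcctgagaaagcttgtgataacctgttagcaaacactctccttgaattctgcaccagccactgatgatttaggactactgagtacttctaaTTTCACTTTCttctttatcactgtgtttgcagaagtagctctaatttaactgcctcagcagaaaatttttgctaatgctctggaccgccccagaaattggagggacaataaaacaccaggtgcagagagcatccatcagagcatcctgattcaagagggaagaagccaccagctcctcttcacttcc
Gbp2: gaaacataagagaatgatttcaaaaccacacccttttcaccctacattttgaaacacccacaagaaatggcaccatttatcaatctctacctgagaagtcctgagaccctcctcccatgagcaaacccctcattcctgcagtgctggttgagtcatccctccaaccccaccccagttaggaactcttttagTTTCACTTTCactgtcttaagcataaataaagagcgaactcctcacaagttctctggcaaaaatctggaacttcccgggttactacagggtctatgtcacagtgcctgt

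The element was searched as GAAANNGAAA on both strands, which reads TTTCNNTTTC on the other one. Both genes have the same match, TTTCACTTTC, beginning 137 bases before the start of Gbp2b and 59 bases before that of Gbp2, and in neither window does another searched motif overlap it. Over the 5 coding genes of the cluster, 5 of 6 windows hold a match (Gbp3 has 2 windows), while 1131 of all 32851 windows of the RefSeq table do (3.44%). The gamma-activated site, searched as TTCNNNGAA, was in 2 of the 6 windows, those of Gbp5 and Gbp7, and in 8.30% of all windows. A match describes letters only, and the arrays carry no measurement of binding there.

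The Gbp probes were lower in offspring than in control DNA on both arrays. Each value is the log2 ratio of offspring over control processed signal, centred on the median of its array, so that 0 is the ratio of a typical probe. The 8 probes had a median of −0.66 on the adult array, a ratio of 0.631, with values from −1.56 to −0.45. On the embryo array they had a median of −0.81, a ratio of 0.569, with values from −1.45 to −0.099. All 8 probes were below 0 on both arrays. A probe is counted as low here at −0.5 or below, a limit set for description. By it, 7 of the 8 were low on the adult array, where 5.52% of autosomal probes were, and 6 of 8 on the embryo array, where 5.57% were. There were 5 low on both arrays, as were 0.195% of autosomal probes. As the same ratios chose the family, nothing is read from these counts against the background. The adult calls depend on the background correction. With the mean minus background signal 3 of 8 were low, where 8.84% of autosomal probes were. With normexp, described below, 2 of 8 were low, where 0.212% of autosomal probes were. The limit of −0.5 is thus not equally strict under each correction, and nothing is read from these counts either. Under each, 1 Gbp probe was low on both arrays, and no share over all probes is given for that.

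**Figure D1:**
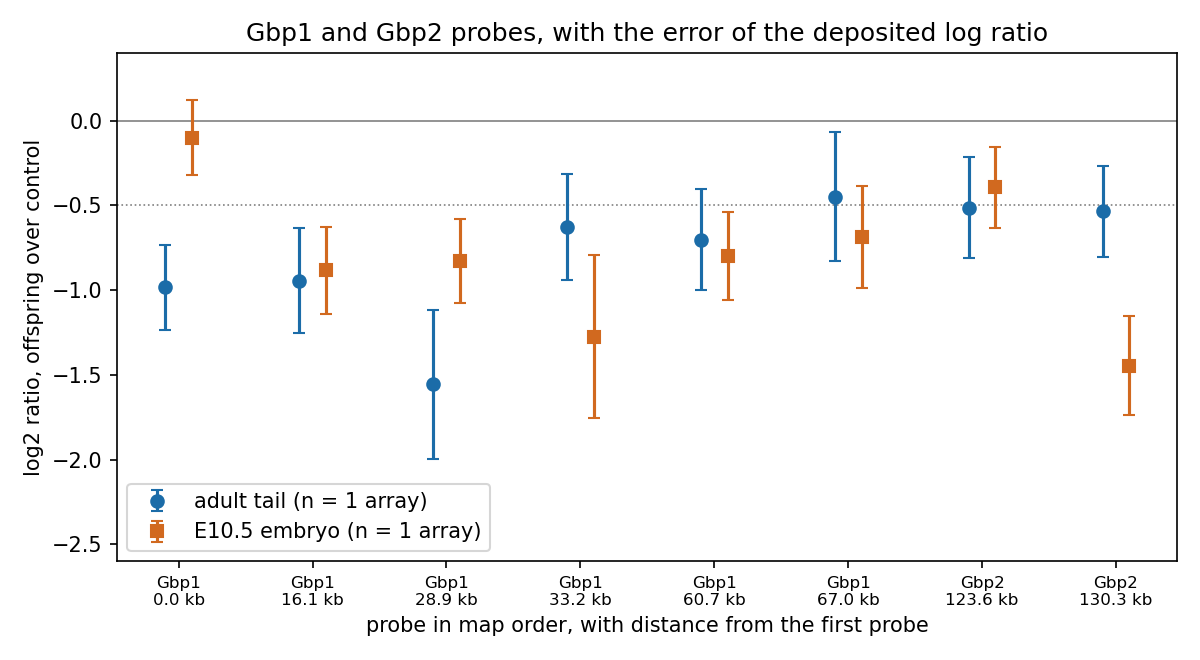
The log2 ratio of offspring over control (vertical axis) of the 8 probes in map order, on the adult (circles) and embryo (squares) arrays, with bars for the deposited error of each log ratio and a dotted line at −0.5. All 16 values lie below 0, and the first Gbp1 probe is at −0.98 in the adults and −0.099 in the embryos.

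The cluster is described from its first probe, at chr3:141474599-141474658, in the coordinates of the array files. This Gbp1 probe had a processed signal of 895 in offspring and 1742 in control DNA on the adult array, a log2 ratio of −0.98 with an error of 0.250. On the embryo array its signals were 2047 and 2182, a log2 ratio of −0.099 with an error of 0.223. It was thus clearly below the typical probe in the adults and within its own error of 0 in the embryos, where it was the brightest of the 8 and the highest in ratio. The second Gbp1 probe, 16.1 kb on at chr3:141490662-141490721, had signals of 697 and 1320 in adult offspring and control DNA and a log2 ratio of −0.94 (error 0.311). In the embryos its signals were 577 and 1059, a log2 ratio of −0.88 (error 0.255), so both stages gave nearly the same value here.

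The third Gbp1 probe (chr3:141503540-141503596, 28.9 kb from the first) had the lowest adult ratio of the 8. Its adult signals were 224 in offspring and 648 in control DNA, a log2 ratio of −1.56 with an error of 0.441. In the embryos they were 941 and 1661, a log2 ratio of −0.83 with an error of 0.248. Its adult offspring signal was the dimmest of the 8, and its adult error the largest. The next Gbp1 probe (chr3:141507757-141507816, 33.2 kb) was the dimmest in the embryos instead, at 205 in offspring and 494 in control DNA, and its log2 ratio there was −1.27 with an error of 0.482. Its adult signals were 513 and 781, a log2 ratio of −0.63 with an error of 0.312. On each array the lowest Gbp1 ratio belonged to the probe with the lowest offspring signal, which is the numerator of that ratio. By control signal the same probe was the dimmest in the embryos. In the adults the dimmest by control signal was the sixth Gbp1 probe (514), which had the highest adult ratio (−0.45).

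The last pair of Gbp1 probes had moderate ratios at both stages. The one at chr3:141535319-141535377 (60.7 kb) had adult signals of 461 and 738 in offspring and control DNA and embryo signals of 842 and 1457. Its log2 ratios were −0.70 (error 0.300) and −0.80 (error 0.260). The one at chr3:141541645-141541704 (67.0 kb) had adult signals of 383 and 514, a log2 ratio of −0.45 (error 0.380), the highest of the 8 on that array. In the embryos its signals were 519 and 831, a log2 ratio of −0.69 (error 0.300). It is the only Gbp1 probe above −0.5 on the adult array.

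Gbp2 begins 56.5 kb further along, the widest gap between neighbouring probes of the set. Its first probe (chr3:141598208-141598267, 123.6 kb) had adult signals of 800 and 1125 in offspring and control DNA, a log2 ratio of −0.51 (error 0.297). In the embryos they were 951 and 1243, a log2 ratio of −0.39 (error 0.239). This probe lay near −0.5 at both stages. Its second probe (chr3:141604877-141604936, 130.3 kb) had adult signals of 763 and 1089, a log2 ratio of −0.53 (error 0.269). In the embryos they were 539 and 1462, a log2 ratio of −1.45 (error 0.293), the lowest embryo value of the 8. The pair of Gbp2 probes lies 6.61 kb apart and gave almost the same value in the adults and values more than 1 log2 unit apart in the embryos.

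**Figure D2:**
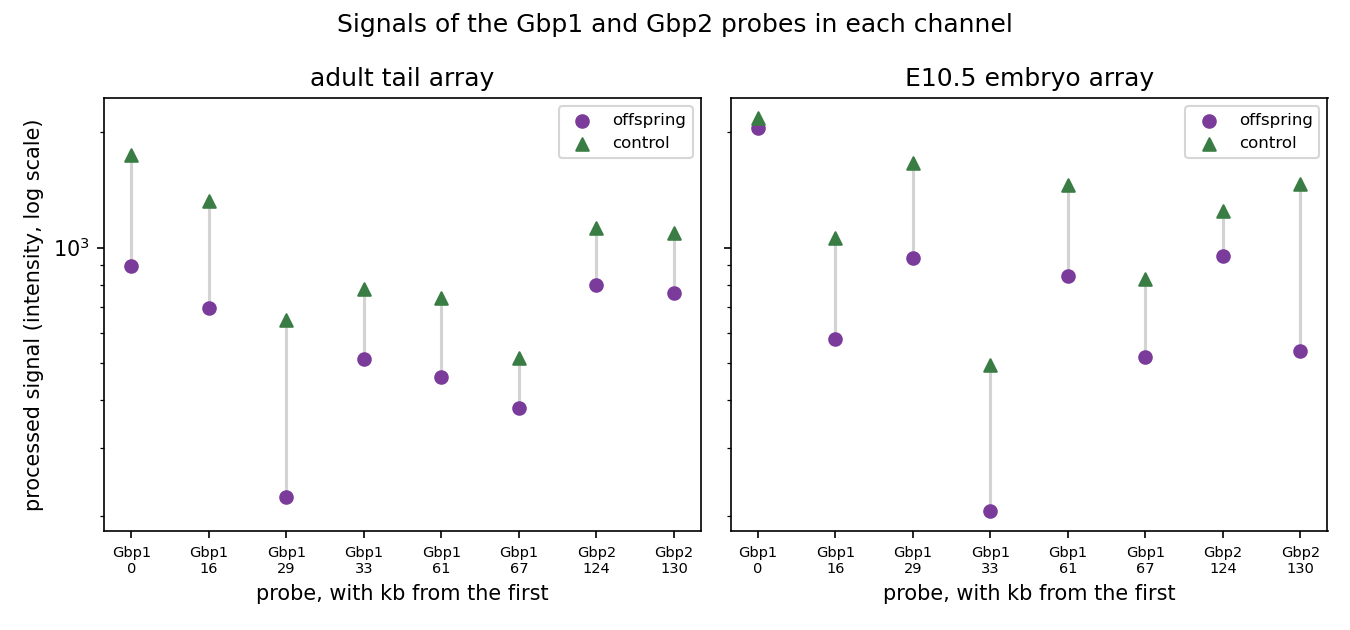
Processed signal (intensity, log axis) of the 8 probes in offspring (circles) and control (triangles) DNA, adult array on the left and embryo array on the right, 1 spot per probe and channel. The control signal is above the offspring signal at every probe, least at the first Gbp1 probe in the embryos (2047 against 2182).

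Every one of the 8 probes had 1 spot, was well above background in both channels on both arrays, and had no saturated or outlier mark and no surrogate value. On the adult array 8 of the 8 probes lay further below 0 than their own error and 5 further than 2 errors. On the embryo array these counts were 7 and 6. No such counts over all probes are given, and the same ratios chose the family, so nothing is read from them. As a guide to the error between spots of the same array, the 308 probes of the whole array that were spotted 3 times had a median SD of 0.194 (adult) and 0.0651 (embryo) on the log2 scale. The deposited error of a typical probe was larger, 0.270 and 0.250.

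By gene, the 6 Gbp1 probes had a median of −0.82 in the adults (SD over probes 0.388) and −0.81 in the embryos (SD over probes 0.382). These are ratios of 0.565 and 0.569. Gbp1 had 5 probes at or below −0.5 on each array and 4 on both. Without the first probe its embryo median was −0.83. The 2 probes of Gbp2 had a median of −0.52 in the adults (SD over probes 0.0152), a ratio of 0.695, and −0.92 in the embryos (SD over probes 0.744), a ratio of 0.528. The embryo median of Gbp2 is thus the middle of a high and a low probe, and its SD is larger than the distance between the medians of Gbp1 and Gbp2 at either stage. Probes of a gene share its DNA sample and array, so these SDs describe probes and not animals.

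The gene medians were near each other between stages for Gbp1 (embryo minus adult 0.011) and apart for Gbp2 (−0.40), and with 1 array per stage neither difference was tested. Single probes differed more. In the embryos 4 probes were lower than in the adults and 4 were higher. The first Gbp1 probe was higher in the embryos by 0.88 and the third by 0.73, with combined errors of the 2 arrays of 0.335 and 0.506. The fourth Gbp1 probe was lower in the embryos, by −0.65 with a combined error of 0.574, and so was the second Gbp2 probe, by −0.91 with a combined error of 0.398. For these 4 probes the difference exceeded the combined error, and for the other 4 it did not. No share of all probes that do so is given. The arrays also differ in dye order, tissue and controls, so nothing is read from this count. Across the 8 probes the adult and embryo ratios had a Pearson correlation of −0.173 and a Spearman correlation of 0. That is a description over 8 probes that share both arrays, and the probes lowest in the adults were not those lowest in the embryos.

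How the background was removed mattered for Gbp1 in the adults. With the mean pixel signal minus the local background in place of the processed signal, the adult median of Gbp1 was −0.13 and that of Gbp2 −0.45. The first and second Gbp1 probes then stood at −0.82 and −0.82, the next pair at −0.17 and −0.083, and the last pair at 0.17 and 0.13. So the first pair and Gbp2 stayed below 0, and the last pair of Gbp1 probes moved above it. With normexp, a model-based background correction, the adult median of Gbp1 was −0.23 and that of Gbp2 −0.38. In the embryos the medians were lower than −0.5 under both corrections, at −0.66 and −0.60 for Gbp1 and −0.74 and −0.77 for Gbp2.

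**Figure D3:**
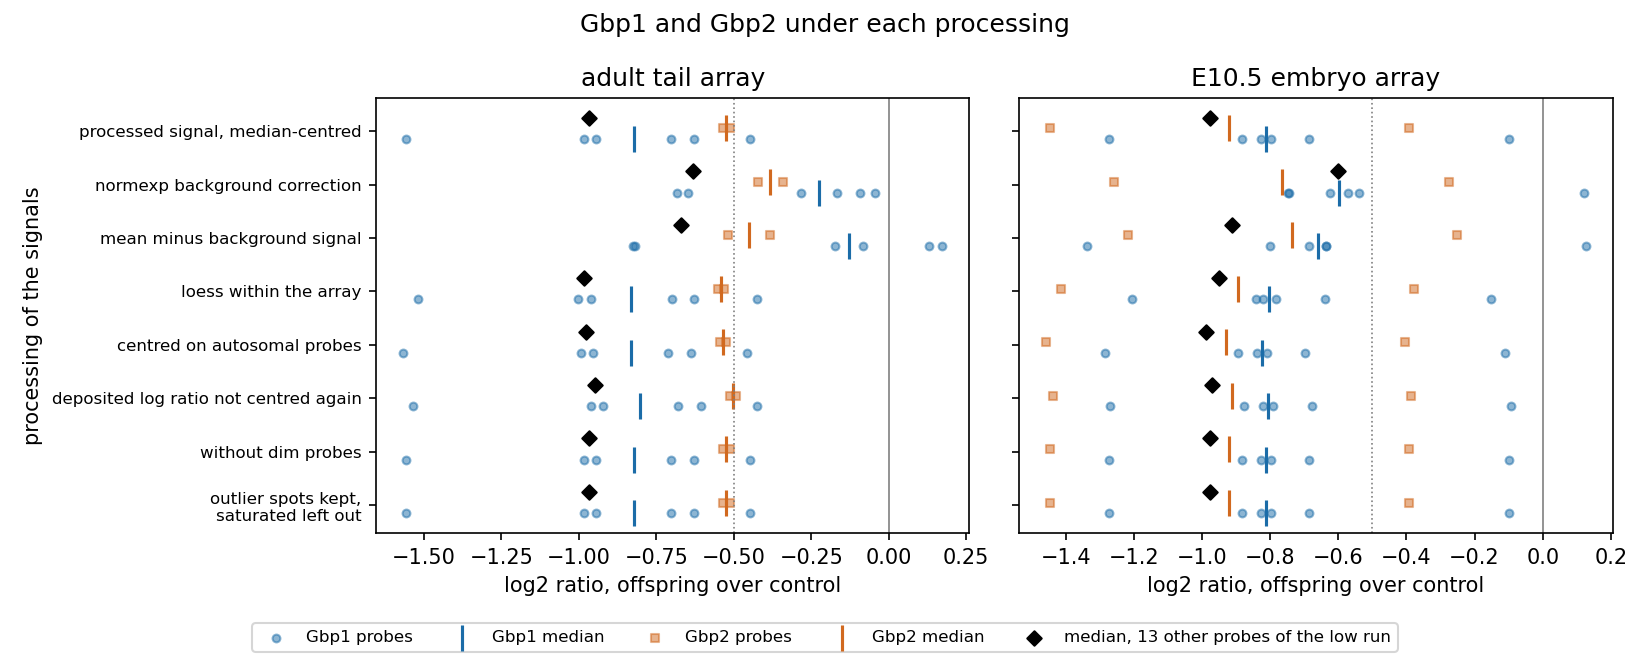
The log2 ratio of offspring over control (horizontal axes, ranges differ between the panels) of each Gbp1 and Gbp2 probe and their medians under 8 ways of processing, with the median of 13 neighbouring probes as a diamond. With the mean minus background signal the adult Gbp1 median is −0.13 and the neighbours' is −0.67, while in the embryos Gbp1 stands at −0.66.

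The mean signals above the local background, from which the first of these corrections is made, are given beside this result. Their part in it was not tested. Over all adult spots the mean signal stood above the local background by a median of 90.5 units in the offspring channel and 69.0 in the control channel, against 199 and 142 on the embryo array. The third Gbp1 probe stood 63.2 (offspring) and 54.2 (control) units above background in the adults, and the sixth 60.0 and 41.7. The first Gbp1 probe stood 89.2 and 120 units above it. In the embryos the probe 33.2 kb from the first stood 51.1 (offspring) and 91.8 (control) units above background, less in offspring DNA than its 76.8 in the adults, and its embryo ratio was −1.34 with the mean minus background signal. Before detrending and dye scaling, the first pair of Gbp1 probes and the first Gbp2 probe were dimmer in adult offspring than in control DNA. The third to sixth Gbp1 probes were brighter in offspring DNA, and the second Gbp2 probe was nearly equal (82.8 in offspring and 82.2 in control DNA). The X chromosome moved likewise with the correction. All animals are labelled female, yet the 1569 X probes of the adult array had a median of −0.86 from the processed signals, and −0.23 from the mean minus background signals. On the embryo array the 1566 X probes had −0.86 and −0.85. With normexp the X medians were −0.28 in the adults and −0.55 in the embryos. The part of the X shift in the Gbp ratios was not tested.

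The family members under other names, both on chromosome 5, had no value at or below −0.5. Mpa2 is an older name of Gbp4, and its probe (chr5:104207316-104207375) had −0.13 (error 0.232) in the adults and 0.12 (error 0.256) in the embryos. 5830443L24Rik is an older name of Gbp8 and has 2 probes. The one at chr5:104021889-104021948 had −0.024 (error 0.584) in the adults and −0.28 (error 0.388) in the embryos. The other, at chr5:104006163-104006222, had 0.57 (error 1.99) in the adults, where it was not well above background, and −0.11 (error 0.738) in the embryos. Each of these values lay within its own error of 0.

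The Gbp probes sit inside a longer stretch of low probes. Going outwards from them, consecutive probes were below 0 on both arrays for 424.7 kb before the first Gbp1 probe and 246.8 kb after the last Gbp2 probe. This stretch holds 21 probes, of which 13 are not Gbp probes. Those 13 had a median of −0.97 in the adults (SD over probes 0.218) and −0.98 in the embryos (SD over probes 0.375), ratios of 0.511 and 0.508. These 13 were taken because they were below 0 on both arrays, so their medians are set in part by that choice. They are also all of the other probes within 500 kb of the Gbp probes. The Gbp probes, at −0.66 and −0.81, were nearer to 0 than these neighbours on both arrays, a difference that was not tested. Its size depends on the correction. With normexp the embryo medians were −0.60 for the 8 Gbp probes and −0.60 for the neighbours, with Gbp2 at −0.77. In the adults they were −0.31 and −0.63. With the mean minus background signal they were −0.66 and −0.91 in the embryos and −0.28 and −0.67 in the adults. In the adults Gbp2 was nearer to 0 than Gbp1 from the processed signals, and Gbp1 was nearer than Gbp2 under both other corrections. The 10 probes before the stretch had medians of 0.098 and −0.12, and the 10 after it −0.083 and 0.18. As the same ratios set the ends of the stretch, nothing is read from its contrast with these probes. No probe was placed in the 1241 kb that follow the stretch, and 85.6 kb separate it from the last probe before it.

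**Figure D4:**
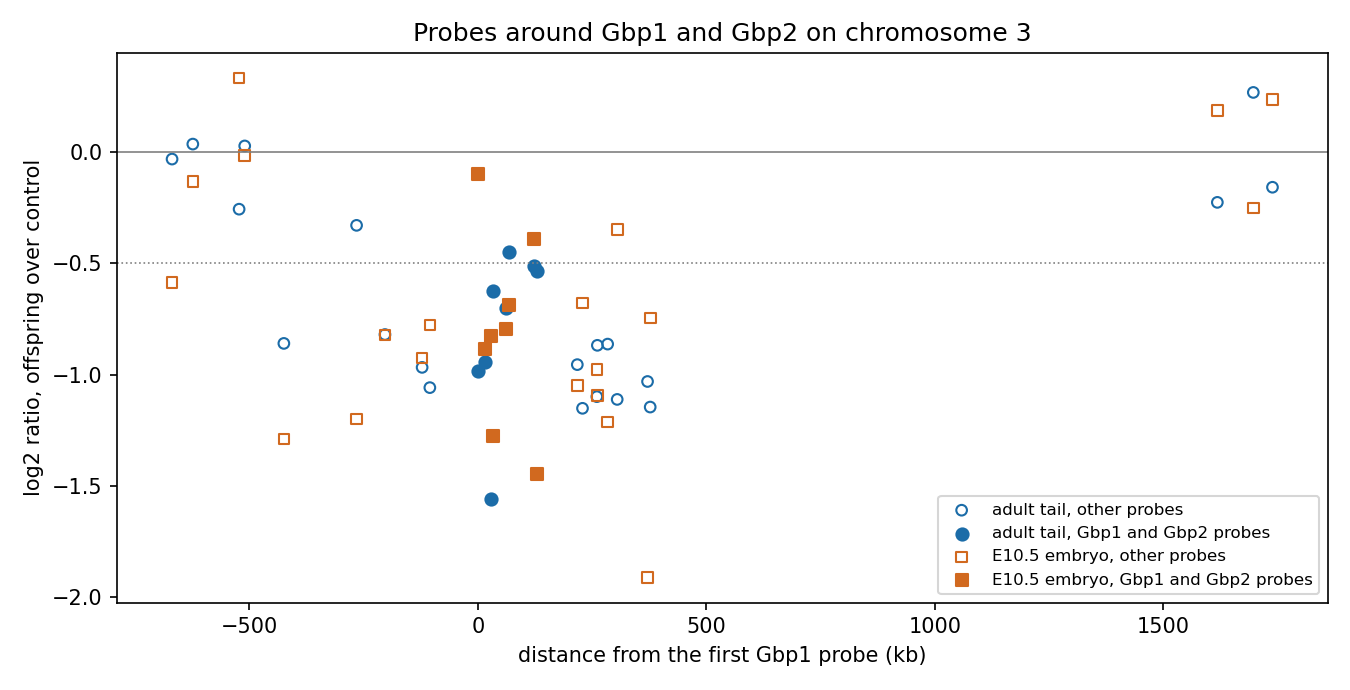
The log2 ratio of offspring over control of the probes around the Gbp genes against their distance from the first Gbp1 probe, with Gbp1 and Gbp2 filled and the other probes open, for the adult (circles) and embryo (squares) arrays. The stretch of 21 probes begins 424.7 kb before the first Gbp1 probe and was drawn over probes below 0 on both arrays. The nearest probe on either side is at 0.025 (adult) and −0.018 (embryo) before it and at −0.23 and 0.19 after it.

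The genes next to the family were low with it. Before Gbp1 come Pdlim5, a PDZ and LIM domain protein of muscle (−0.89 adult, −0.87 embryo, 2 probes), and the probe NAP066811-1 (−1.06 and −0.78). Further out lie a probe named Nrap (−0.33 and −1.20) and a single low probe of Bmpr1b, a receptor of bone morphogenetic proteins (−0.86 and −1.29). After Gbp2 come Ccbl2, now Kyat3, a kynurenine aminotransferase (−1.05 and −0.86), and Gtf2b, the general transcription factor TFIIB (−0.98 and −1.04). An unnamed probe (−0.86 and −1.21), Pkn2, a protein kinase (−1.07 and −1.13), and 9530052C20Rik (−1.15 and −0.75) end the stretch. The embryo median of Pkn2 is the middle of 2 probes at −0.35 and −1.91. Of the 10636 autosomal genes with at least 2 usable probes, 7 had a median at or below −0.5 on both arrays (0.0658%). Gbp1 and Gbp2 are 2 of these, Pkn2, Ccbl2, Gtf2b and Pdlim5 are from the same stretch, and 1810008A18Rik is on chromosome 10. The higher adult probe of 1810008A18Rik was at −0.015. Counted from the lowest, Gbp1 ranked 20 in the adults and 13 in the embryos, and Gbp2 ranked 139 and 4. With the mean minus background signal the adult medians were −0.13 (Gbp1) and −0.45 (Gbp2), and with normexp −0.23 and −0.38. Under either correction neither gene was at or below −0.5 on both arrays, and no share over all genes is given there. As the same ratios chose the family, nothing is read from its place among these genes or from its ranks.

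The genes whose pair of array medians was nearest to that of Gbp1 were found by the distance on the log2 scale over the 2 arrays. They were Pdlim5 at a distance of 0.0949, Ccbl2 at 0.236, Gtf2b at 0.276, Gbp2 at 0.318 and 1810008A18Rik, now Fam207a, at 0.326 (medians −0.68 and −0.52). The nearest 4 lie beside Gbp1 on chromosome 3. Of the 79 autosomal probes at or below −0.5 on both arrays, 16 were in this stretch, 5 of them Gbp probes, and 63 were elsewhere. The stretch holds 21 of the 40482 autosomal probes measured on both arrays. It was drawn outwards from the Gbp probes over probes below 0 on both arrays, so nothing is read from this count. With the mean minus background signal or normexp, 1 Gbp probe was low on both arrays, and no share over all probes is given there.

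Genes that act with the guanylate-binding proteins, or are induced alongside them, were listed by role. Of 58 listed genes 47 were measured, by 79 probes, with medians of 0.056 in the adults and −0.0034 in the embryos, beside 0.0095 and 0.0077 over all 22603 autosomal genes with a usable probe. By its gene median, 1 listed gene was at or below −0.5 in the adults, where 3.22% of all these genes were, and 4 in the embryos, where 3.67% were. None was on both arrays, against 0.102% of all genes, so a count of 0 says nothing of the lists. The counts below are read against these shares and set no list apart from other genes.

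The first list holds the IRG family, smaller interferon-induced GTPases that act on the same vacuoles, and also Gvin1, of the separate family of very large inducible GTPases. Of its genes 4 of 9 were measured and none was at or below −0.5, with medians of −0.059 and −0.023. Irgm1, a regulator of the family, had 0.24 in the adults and −0.10 in the embryos, and Irgm2 had −0.13 and 0.059. Irgc1, known as a testis member, had −0.14 and −0.21, and Gvin1 had 0.013 and 0.056. The Mx proteins and dynamins, which share the large GTPase fold, were all measured, 6 of 6, with medians of 0.049 and 0.022 and none at or below −0.5. Mx1 had −0.15 and 0.11 and Mx2 had 0.040 and 0.13. The highest adult value among them was that of the dynamin gene Dnm3, at 0.32, which had −0.22 in the embryos.

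In the pathway that induces the Gbp genes, 10 of 12 were measured. Ifng, the cytokine itself, had 0.084 in the adults and −0.14 in the embryos, and Ifngr1, its receptor chain, 0.32 and −0.25. Jak1, a kinase bound to the receptors, had 1 probe at −0.085 and −0.66 and was the only one of the list at or below −0.5 on an array. Irf1, a transcription factor that interferon gamma induces, had 0.22 and 0.22.

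Downstream, 7 of 8 inflammasome genes were measured and none was at or below −0.5. Nlrp3, a sensor, had 0.053 and 0.47, and Casp4, the caspase that senses bacterial lipopolysaccharide, 0.37 and −0.051. The embryo median of Nlrp3 is the middle of 2 probes at 0.075 and 0.87. Of the ATG conjugation genes, needed to place guanylate-binding proteins on vacuoles, 10 of 10 were measured, 0 were low in the adults and 3 in the embryos. These were Atg5 (0.17 in the adults, −0.58 in the embryos), Atg7 (0.46 and −0.61) and Map1lc3b (0.22 and −0.54). The embryo median of Atg5 is the middle of 2 probes at −1.01 and −0.15, and Atg7 and Map1lc3b have 1 probe each. The count depends on the background correction, as the embryo value of Map1lc3b was −0.38 with the mean minus background signal and −0.44 with normexp, and that of Atg5 was −0.31 with normexp. Map1lc3a went the other way in the embryos, at 1.15 from 1 probe, with 0.060 in the adults. Of the other interferon-induced genes 10 of 13 were measured, and Ifit1, which binds foreign RNA, was low in the adults (−0.62, 1 probe) and not in the embryos (0.012). Its adult value was −0.0024 with the mean minus background signal and −0.12 with normexp, so this call rests on the processed signals. Oas2, a sensor of double-stranded RNA, had −0.11 and −0.34, the embryo value being the middle of 2 probes at −0.84 and 0.15.

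**Figure D5:**
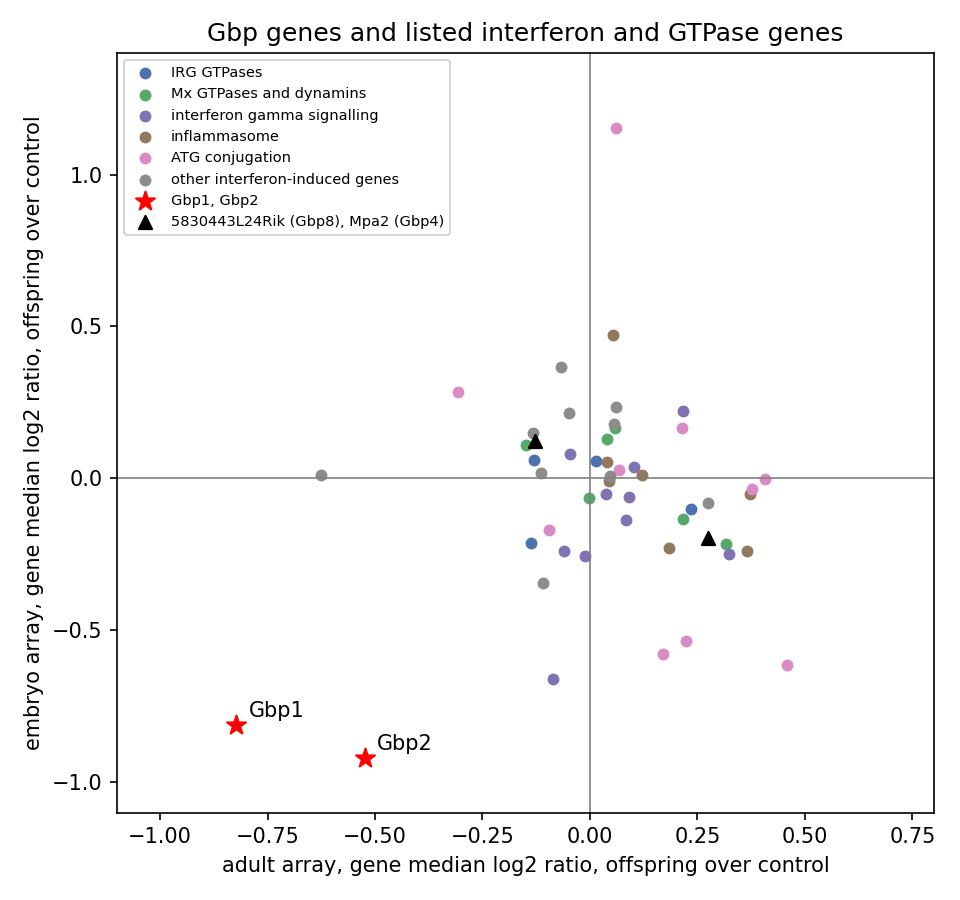
Each point is a gene, by its median log2 ratio of offspring over control on the adult array (horizontal axis) and on the embryo array (vertical axis), coloured by list, with Gbp1 and Gbp2 as stars and the chromosome 5 family members as triangles. Gbp1 (−0.82, −0.81) and Gbp2 (−0.52, −0.92) are in the lower left, and none of the 47 listed genes is at or below −0.5 on both axes.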

How the data were processed

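The deposited files give spot intensity values from 1 adult and 1 embryo array, written by Agilent Feature Extraction 9.1.1.1 per the file headers, or 9.1 per the submitters' processing notes. The headers also record that the authors' processed intensity was background-subtracted, spatially detrended and linearly dye-normalized, and dim spots got surrogate values. The deposited log10 ratio is Cy5 over Cy3, its log10 error was turned to log2 here, and the log10 value table matched the ratio within 0.0005 (medians −0.0032 and 0). The sources used here do not give the genome build or any pooling.

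Of 44050 spots, 1030 control spots and 8 (adult) or 34 (embryo) outlier spots were left out. Log2 ratios of offspring over control were computed from processed signals, Cy3 over Cy5 in the adults and Cy5 over Cy3 in the embryos, averaged per probe and centred on the array median, with no loess. Precision is limited by having 1 array per stage, and no test was run. A gene was taken per chromosome, so that Pdlim5 and Nrap, which the files also place elsewhere, count by their chromosome 3 probes. The assembly table (GRCm38.p6) puts Nrap on chromosome 19. It was used for names, order and gene lengths.

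Alternatives were normexp (offset 50) and loess in limma 3.58.1 (R 4.3.3), mean minus background signal, other centring, the deposited ratio, dim and saturated spots left out, the mean over probes, wider membership and other thresholds. Named genes are the family, all genes within 500 kb and the 5 nearest to Gbp1. Of each list, some of the up to 3 lowest and 3 highest genes are named, and Ifng and Atg7 are named besides. Members, lists and limits were chosen with earlier results of these data known. Steps were tested on simulated data and run in Python 3.11.15 (matplotlib 3.10.9, scipy 1.17.1, pandas 2.3.3, numpy 2.4.6).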

Additional observations from a re-analysis of the deposited data

Results flagged for a closer look

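The medians of the family members of chromosome 5 had opposite signs on the arrays, though each probe value lay within its own error of 0. For 5830443L24Rik (now Gbp8) the embryo median minus the adult median was −0.47, from 0.28 in the adults, where 1 of its 2 probes was not well above background, and −0.20 in the embryos. That sign rests on the dim probe (0.57, error 1.99), since the other had −0.024 and −0.28. For Mpa2 (now Gbp4) the difference was 0.25, from −0.13 in the adults to 0.12 in the embryos, by 1 probe. Neither difference was tested, as there was 1 array per stage.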

How the results depend on the processing

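Of 50 Gbp medians recomputed under alternatives, 50 were below 0, 40 moved by less than the SD of repeated spots and 10 moved by more, all 10 under another background correction, and the cause was not tested. With normexp, the Gbp1 median was −0.23 (adult) and −0.60 (embryo), and that of Gbp2 −0.77 (embryo). That of the 8 probes was −0.31 (adult) and −0.60 (embryo). With the mean minus background signal, these medians were −0.13, −0.66, −0.74, −0.28 and −0.66. In the adults 2 Gbp probes were at or below −0.5 with normexp, where 0.212% of autosomal probes were. With the mean minus background signal 3 were, where 8.84% of autosomal probes were. On both arrays 1 was, under each correction. At a threshold of −0.8, 3 probes were low in the adults and 2 on both arrays. No share over all probes is given for that threshold or for both arrays under these corrections. The adult Gbp2 median stayed between −0.54 and −0.38.

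Of 112 probe values, 4 changed sign. The first Gbp1 probe had 0.13 (mean minus background) and 0.12 (normexp) in the embryos, and the fifth and sixth had 0.17 and 0.13 (mean minus background) in the adults. Among other genes, mean minus background gave Atg5 −0.012, Jak1 0.20 and Map1lc3a −0.61 in the adults and Ifit1 −0.20 in the embryos. Normexp gave Jak1 0.020 and Map1lc3a −0.23 in the adults and Ifit1 −0.17 in the embryos. Without dim probes 5830443L24Rik was at −0.024 in the adults. No paired analysis was possible because there was 1 array per stage.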
